A study of Mus musculus with 9 samples.

Results

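Inhibitory receptors are surface proteins that dampen the response of an activated T cell when they bind their ligands, and they appear on CD8+ T cells soon after antigen is seen. They are best known as a set from chronic infection and tumours, where many of them stay high on the same cell together with the transcription factor TOX, a DNA-binding protein of the HMG-box family that is needed for the exhausted state. In an acute infection, such as the one used here, most of them are expressed during the effector phase and decline as antigen is cleared. The genes described are 9 of surface proteins, Pdcd1, Havcr2, Lag3, Tigit, Ctla4, Cd160, Btla, Cd244a and Entpd1, and Tox. They were taken as a named list, and all 10 were found among the 55471 gene identifiers of the count files and were among the 14918 genes with enough counts to be tested.

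The cells were OT-I CD8+ T cells, whose transgenic receptor recognises a peptide of ovalbumin. The control libraries (Bdh1-WT;shCtrl, n = 4) came from cells with intact Bdh1 that received a short hairpin RNA against firefly luciferase. The DKO libraries (Bdh1-KO;shOxct1, n = 5) came from Bdh1 knockout cells that received a hairpin against Oxct1, so Oxct1 was knocked down and not deleted, and the labels do not say how the Bdh1 allele was made. In both groups naive cells were stimulated in culture through CD3 and CD28 with IL-2, transduced, sorted for the Ametrine reporter and transferred into C57BL/6 hosts that carry CD45.1 and keep their own T cells. Infection with LmOVA, which is Listeria monocytogenes engineered to make ovalbumin, followed, and the CD45.2, Ametrine-positive cells were sorted for RNA on day 7 of the infection. The labels give no age or sex of the mice and do not say whether each library is a different host, so p-values measure only the spread between these samples.

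The libraries held 45205993 to 59853080 counts in genes, and no member had fewer than 293 counts in any library. Oxct1 was at 8.17% and Bdh1 at 34.9% of the control mean in DKO, with no overlap for either gene (exact permutation p 0.0159 each, two-sided, the smallest that 126 relabellings allow). Cd8a lay between 662.9 and 797.0 CPM (counts relative to library size after TMM scaling), while Cd4 did not exceed 0.662 CPM and Pax5, a B cell factor, had 0 counts in every library. The summed B cell markers, led by Ighm, were at 186.6 to 270.6 CPM in control and 194.8 to 215.4 CPM in DKO. Control replicates 1 and 3 stood apart from the rest in the principal components, and in control replicate 1 the longest of 3 exonic length classes of genes differed from the shortest by -0.62 on the log2 scale. The same difference lay between -0.04 and 0.16 in the other 8 libraries. Summed CD8 T cell markers were at 8664 to 11046 CPM in control and 7731 to 8903 CPM in DKO (exact permutation p 0.0317, two-sided, adjusted p 0.0529 over 5 marker lists). Of the 10 CD8 T cell markers 9 had negative fitted values (median log2 change -0.20), and Cd8b1, the most abundant, fell from 2245 ± 280 to 1701 ± 129 CPM (log2 change -0.40, edgeR adjusted p 0.0428). Cd8b1 kept the threshold without 1 library, control replicate 1, and lost it without any of the other 8 (edgeR adjusted p of at most 0.127). Prf1, the perforin gene, had an adjusted p of 0.0516 in edgeR and passed in DESeq2 and limma-voom. Natural killer cell markers, led by Klrb1c (57.4 to 85.9 CPM in control, 47.5 to 72.2 CPM in DKO), summed to 67.8 to 92.4 and 55.5 to 79.4 CPM (exact permutation p 0.0952, adjusted p 0.119), with Ncr1 at no more than 0.247 CPM.

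With edgeR's quasi-likelihood test and a threshold of 0.05 on the adjusted p, 1 of the 10 genes passed, Entpd1, which fell. Over all genes tested 2.83% passed, 1.51% lower and 1.32% higher in DKO. Entpd1 and Ctla4, 2 of the 10, had no overlap in CPM between the groups, against 8.71% of all genes tested. An unadjusted p under 0.05 was reached by 5 of the 10 (Ctla4, Entpd1, Havcr2, Tigit and Tox), against 16.0% of all genes tested. The 10 genes were chosen with earlier results of these data known, so these counts are not independent support for a difference. The fitted change was positive for 7 and negative for 3, with a median log2 fold change of 0.10, where the median over all genes tested was -0.01. The called member was lower, and the other 4 with an unadjusted p under 0.05 had positive fitted values. DESeq2's Wald test and limma-voom each called 2 of the 10, Entpd1 and Ctla4, against 6.52% and 6.68% of the genes they tested.

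**Figure D1:**
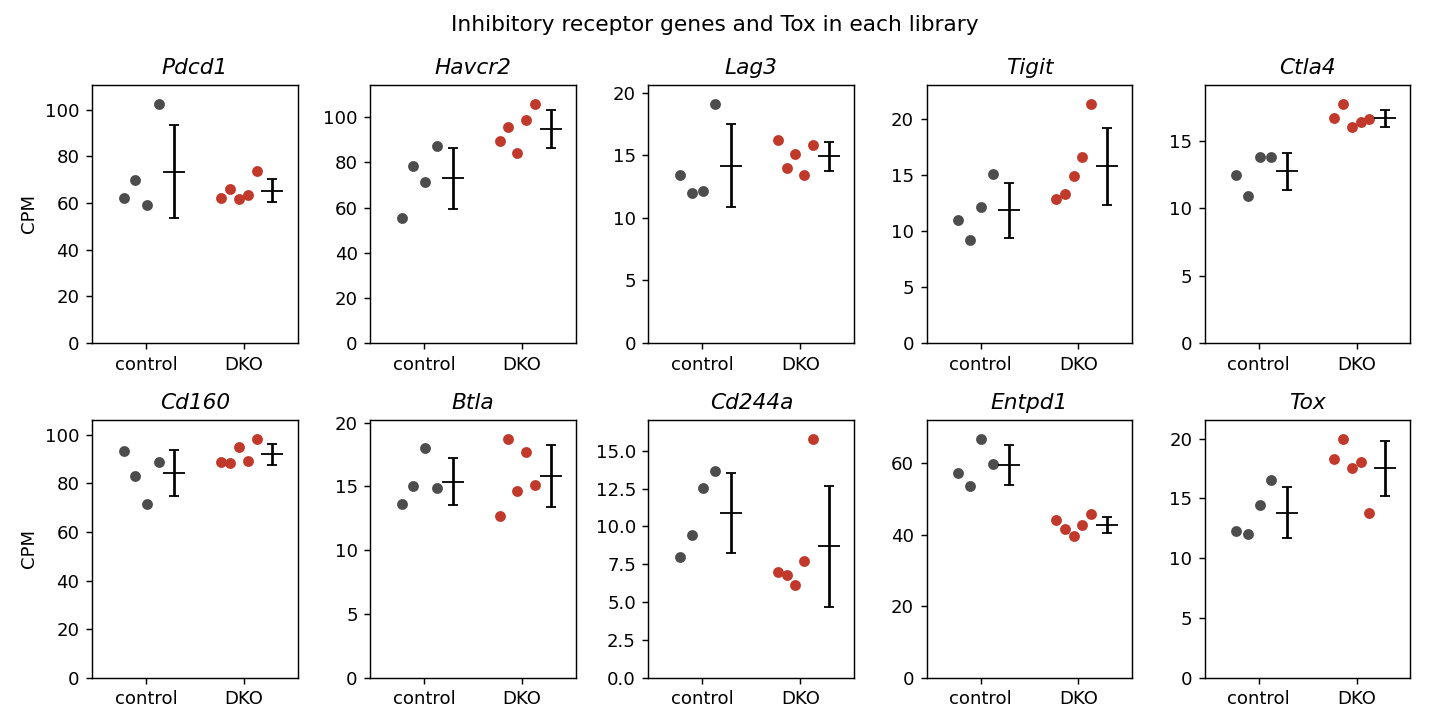
CPM of the 9 receptor genes and Tox in each library (vertical axes, from 0), control in grey (n = 4) and DKO in red (n = 5), with the mean and SD as a black mark and bar. The groups are apart for Entpd1, where the lowest control library is at 53.7 CPM and the highest DKO library at 45.8 CPM, and for Ctla4, while the other 8 genes overlap.

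Entpd1 encodes CD39, an ectoenzyme that removes phosphates from extracellular ATP and ADP and so supplies the AMP from which CD73 makes adenosine, a suppressor of T cells. Its gene (ENSMUSG00000048120.16, protein-coding) lies on the plus strand of chromosome 19 from 40612366 to 40741602 in GRCm38. Entpd1 was at 57.4, 53.7, 66.9 and 60.0 CPM in control replicates 1 to 4 and at 44.2, 41.5, 39.7, 42.7 and 45.8 CPM in DKO replicates 1 to 5. The lowest control library was above the highest DKO library, and control replicate 3 was the highest of all. The mean fell from 59.5 ± 5.55 CPM (SD, n = 4) to 42.8 ± 2.35 CPM (SD, n = 5), to 71.9% of control, a fitted log2 change of -0.48 with a standard error of 0.09 and an adjusted p of 0.0157 (edgeR). The adjusted p was 0.0510 without control replicate 4 and 0.0550 without DKO replicate 3, and it was past the threshold without each of the other 7 libraries and without control replicates 1 and 3 together (0.0215).

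RefSeq places starts of Entpd1 at separate sites in GRCm38.p6, and gene counts do not tell their transcripts apart. The window before the upstream start of Entpd1 (chr19:40612116-40612365, plus strand) overlaps annotated exons and holds 0 matches to each of the 3 words searched here. The 250 bases before the downstream start of Entpd1 (chr19:40659520-40659769, plus strand) and the 250 bases before the RefSeq start of Ctla4, which lies inside the GENCODE gene (chr1:60908775-60909024, plus strand) are shown because these are the genes whose groups did not overlap, with the core word of NFAT, the calcium-driven factor of T cell activation, in capitals. No annotated exon lies in either window.
Entpd1: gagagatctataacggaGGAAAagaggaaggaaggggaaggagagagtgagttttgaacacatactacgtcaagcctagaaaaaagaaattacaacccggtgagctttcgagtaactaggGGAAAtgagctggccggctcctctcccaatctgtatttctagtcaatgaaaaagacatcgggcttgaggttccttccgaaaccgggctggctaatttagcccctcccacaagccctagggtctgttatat
Ctla4: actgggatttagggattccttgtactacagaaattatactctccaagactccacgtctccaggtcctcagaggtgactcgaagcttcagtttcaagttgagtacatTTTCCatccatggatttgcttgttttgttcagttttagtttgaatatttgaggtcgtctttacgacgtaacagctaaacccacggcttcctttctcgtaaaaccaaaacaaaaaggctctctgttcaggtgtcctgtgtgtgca
The word GGAAA, read on both strands, occurred 2 times in the downstream Entpd1 window and 1 time in that of Ctla4, and 55.6% of all 32851 RefSeq windows of that length hold it. The AP-1 word TGANTCA and the T-box word GGTGTNA, also read on both strands, were not in these windows and occur in 6.75% and 8.61% of all of them. Windows were found for 8 of the 10 genes.

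CD39 acts with CD73, encoded by Nt5e, and with the adenosine receptor encoded by Adora2a. Nt5e was at 97.2 to 152.3 CPM in control and 68.8 to 132.0 CPM in DKO (edgeR adjusted p 0.607 for a log2 change of -0.22 with SE 0.18). Adora2a was at 65.7 to 101.2 and 86.0 to 130.9 CPM (log2 change 0.21, SE 0.15, adjusted p 0.541, edgeR). The groups overlapped for both, so of these 3 genes of the adenosine pathway the ectoenzyme Entpd1 alone passed the test.

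Among 8173 other tested genes with a mean of at least 10 CPM, those whose log2 CPM followed that of Entpd1 most closely over the 9 libraries were Dennd6a (Pearson r 0.97), Pon2 (0.95) and Zdhhc20 (0.94), given as a description because the libraries share the 2 groups. All 3 were lower in DKO. They were picked by likeness to Entpd1, whose groups did not overlap, so their direction and adjusted p are not independent findings. Pon2, a paraoxonase family gene, fell from 113.5 ± 7.92 to 65.6 ± 2.54 CPM (edgeR adjusted p 3.37e-04 for a log2 change of -0.79), and Dennd6a and Zdhhc20 fell by 0.34 and 0.28 on the log2 scale (adjusted p 0.0278 and 0.0447, edgeR).

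CD39 is also made by myeloid cells, B cells and regulatory T cells, so markers of these cells are given beside it. In bulk RNA, fewer cells of a type and less RNA per cell cannot be told apart. The summed CPM of 12 myeloid markers was 254.3 to 292.2 in control and 203.4 to 218.7 in DKO (exact permutation p 0.0159, two-sided, adjusted p 0.0397 over 5 marker lists), and 10 of the 12 exceeded 1 CPM on average. The list was mixed: of the 10 tested, 4 had positive and 6 negative fitted values (median log2 change -0.06). Ctss and Cd68 passed the threshold and fell, by 0.66 and 0.80 on the log2 scale (adjusted p 0.00734 and 0.0138, edgeR), beside 2.83% of all genes tested past it. DESeq2 also called Lyz2, which was higher in DKO, and limma-voom Itgam, which was lower (log2 changes of 1.27 and -0.63 in edgeR, adjusted p 0.206 and 0.148). Cst3, the most abundant, was at 76.4 to 128.5 and 85.4 to 97.7 CPM. Of single markers, Csf1r was at 0.495 to 3.27 CPM in control and 0.838 to 5.63 CPM in DKO. Lyz2 was at 1.47 to 3.40 and 2.80 to 13.6 CPM, and S100a8 at 0 in every control library and 0 to 0.338 CPM in DKO. These 3 of the 12 do not stand for the whole list. The B cell list (9 genes, 3 above 1 CPM on average, led by Ighm) summed to 186.6 to 270.6 and 194.8 to 215.4 CPM (exact permutation p 0.413, adjusted p 0.413). The part of these markers in the value of Entpd1 was not tested.

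Ctla4 encodes CTLA-4, which takes CD80 and CD86 away from the costimulatory receptor CD28. The gene (ENSMUSG00000026011.13) lies on the plus strand of chromosome 1, 60887000 to 60915832. Ctla4 was at 12.5, 10.9, 13.8 and 13.8 CPM in control replicates 1 to 4 and at 16.7, 17.7, 16.0, 16.4 and 16.6 CPM in DKO replicates 1 to 5. Every DKO library was above every control library, and DKO was the tighter group. The control mean was 12.7 ± 1.36 CPM (SD, n = 4) and the DKO mean 16.7 ± 0.638 CPM (SD, n = 5), a fitted log2 change of 0.39 with a standard error of 0.10. Its adjusted p of 0.0799 (edgeR) missed the threshold. The adjusted p was 0.00454 in DESeq2's Wald test and 0.0183 in limma-voom with quality weights, both past it, and 0.0740 to 0.190 in edgeR without each library in turn.

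Its ligands and its competitor did not pass the test. Cd28 was at 287.4 to 349.2 CPM in control and 254.9 to 332.4 CPM in DKO (adjusted p 0.534, edgeR), and Icos, a relative of Cd28, had a log2 change of -0.22 (SE 0.09, adjusted p 0.253). Cd80 was at 37.8 to 53.8 and 37.9 to 41.9 CPM (log2 change -0.27, SE 0.10, adjusted p 0.237), and Cd86 had an adjusted p of 0.777. Regulatory and CD4 T cells also express Ctla4 at high levels. Their 5 markers summed to 51.6 to 67.1 CPM in control and 68.2 to 86.3 CPM in DKO (exact permutation p 0.0159, adjusted p 0.0397), almost all of it from Il2ra and Cd40lg, the 2 that exceeded 1 CPM on average, and neither passed the threshold in edgeR (adjusted p 0.451 and 0.135). Cd40lg, like Ctla4, passed in DESeq2. All 5 had positive fitted values in edgeR, from 0.21 to 1.04 (median log2 change 0.53). Foxp3 and Cd4 were at 0 to 0.265 and 0 to 0.619 CPM in control and at 0.186 to 0.237 and 0.186 to 0.662 CPM in DKO. The part of these 5 markers in the value of Ctla4 was not tested.

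Havcr2 encodes TIM-3, a receptor with galectin-9 among its ligands whose tail binds BAG6. The gene (ENSMUSG00000020399.14) lies on the plus strand of chromosome 11, 46454935 to 46481255. Havcr2 was at 55.3, 78.4, 71.3 and 87.2 CPM in control replicates 1 to 4 and at 89.7, 95.9, 84.1, 98.9 and 105.9 CPM in DKO replicates 1 to 5. The groups overlapped only between control replicate 4 and DKO replicate 3, and the lowest value was that of control replicate 1. The means were 73.1 ± 13.5 and 94.9 ± 8.38 CPM. The log2 change was 0.38 with SE 0.13 (edgeR adjusted p 0.155), and it was 0.18 (adjusted p 0.342) without control replicates 1 and 3. Lgals9, the gene of galectin-9, was at 237.3 ± 17.4 and 249.5 ± 11.5 CPM (adjusted p 0.689), and Bag6 had a log2 change of 0.14 (SE 0.09, adjusted p 0.504).

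Tigit encodes a receptor that binds PVR and competes for it with the activating receptor CD226. The gene (ENSMUSG00000071552.5) lies on the minus strand of chromosome 16, 43648867 to 43664146. Tigit was at 10.95, 9.16, 12.2 and 15.05 CPM in control replicates 1 to 4 and at 12.8, 13.3, 14.9, 16.6 and 21.3 CPM in DKO replicates 1 to 5. The groups overlapped through control replicate 4, and DKO replicate 5 was the highest library. The log2 change was 0.42 (SE 0.18, adjusted p 0.290, edgeR). Of the proteins that share its ligand, Cd226 and Cd96 had log2 fold changes of 0.11 and -0.04 and Pvr itself 0.22 (adjusted p 0.752, 0.819 and 0.604).

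Pdcd1 encodes PD-1, which recruits the phosphatase SHP-2, the product of Ptpn11, when it binds its ligands. The gene (ENSMUSG00000026285.7) lies on the minus strand of chromosome 1, 94038305 to 94052553. Pdcd1 was at 62.1, 70.1, 59.2 and 102.4 CPM in control replicates 1 to 4 and at 62.0, 66.0, 61.6, 63.3 and 73.5 CPM in DKO replicates 1 to 5. Control replicate 4 was above all other libraries, control replicates 1 and 2 lay among those of DKO, and control replicate 3 was the lowest of all. The log2 change was -0.17 (SE 0.15, adjusted p 0.626, edgeR), and without control replicate 4 its sign turned, to 0.03 (adjusted p 0.885). Without control replicates 1 and 3 it was -0.42 (adjusted p 0.109). The ligand genes Cd274 and Pdcd1lg2, which T cells also express, had log2 fold changes of 0.13 and 0.57 (adjusted p 0.664 and 0.493), the latter at 0.368 to 1.13 CPM over all libraries, and Ptpn11 had 0.07 (adjusted p 0.840).

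Cd244a encodes a receptor of the SLAM family that binds CD48 and signals through the adaptor SAP, the product of Sh2d1a. The gene (ENSMUSG00000004709.14) lies on the plus strand of chromosome 1, 171559193 to 171609746. Cd244a was at 7.96, 9.40, 12.6 and 13.7 CPM in control replicates 1 to 4 and at 7.00, 6.81, 6.16, 7.73 and 15.8 CPM in DKO replicates 1 to 5. DKO replicates 1 to 4 were below all control libraries and DKO replicate 5 was above all of them. The log2 change was -0.33 (SE 0.28, adjusted p 0.618, edgeR), and it was -0.66 without DKO replicate 5 (adjusted p 0.122) and -0.20 without control replicate 4 (adjusted p 0.793). Its ligand gene Cd48 was the most abundant of the 13 ligand genes examined, at 1251 ± 166 and 1241 ± 69.2 CPM (adjusted p 0.967). Another member of the SLAM family, Slamf1, a receptor that binds its own kind, rose from 64.8 ± 3.64 to 86.1 ± 5.77 CPM (edgeR adjusted p 0.0227 for a log2 change of 0.41 with SE 0.08), and it lost the threshold without control replicate 4 or DKO replicates 1, 2, 4 or 5 (adjusted p of at most 0.0669).

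Cd160, Btla and Lag3 showed the smallest fitted changes. Cd160, a receptor anchored by a lipid, and Btla both bind HVEM, the product of Tnfrsf14, and Lag3 binds MHC class II. Cd160 (ENSMUSG00000038304.14, minus strand of chromosome 3, 96798763 to 96829351) ranged from 71.4 to 93.4 CPM in control and from 88.3 to 98.4 CPM in DKO (edgeR adjusted p 0.533 for a log2 change of 0.13 with SE 0.09). Btla (ENSMUSG00000052013.15, plus strand of chromosome 16, 45224315 to 45257670) ranged from 13.6 to 18.02 and from 12.7 to 18.7 CPM (log2 change 0.04, SE 0.14, adjusted p 0.921). Lag3 (ENSMUSG00000030124.2, minus strand of chromosome 6, 124904361 to 124911705) ranged from 11.996 to 19.1 and from 13.4 to 16.2 CPM (log2 change 0.07, SE 0.15, adjusted p 0.853). The groups overlapped for all 3, and the sign of the fitted change was not stable for Btla and Lag3, which turned negative under 4 settings and 1 setting. Without control replicate 4 the log2 change of Lag3 was 0.25 (adjusted p 0.331), and without control replicate 3 that of Cd160 was 0.06 (adjusted p 0.738). Tnfrsf14 was at 1.94 to 2.72 CPM over all libraries (adjusted p 0.977). Tigit and Btla lie on the same chromosome as the knocked-out gene, 12.2 and 13.8 megabases from Bdh1.

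Tox (ENSMUSG00000041272.11) lies on the minus strand of chromosome 4, 6686353 to 6991557. Tox was at 12.3, 11.996, 14.4 and 16.5 CPM in control replicates 1 to 4 and at 18.3, 19.98, 17.5, 18.02 and 13.8 CPM in DKO replicates 1 to 5. DKO replicates 1 to 4 were above all control libraries, and DKO replicate 5 lay among them. The log2 change was 0.34 (SE 0.14, adjusted p 0.248, edgeR). An antisense gene, Gm11802, shares 260 exonic bases with Tox, and the count with both strand columns summed was 1.28 times the unstranded count, with a log2 fold change of 0.34 as well. Its relatives were Tox4, at 164.2 ± 16.6 and 174.4 ± 5.91 CPM (adjusted p 0.657), Tox2, at 0.141 to 1.82 CPM over all libraries (adjusted p 0.187), and Tox3, with 0 counts in all.

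**Figure D2:**
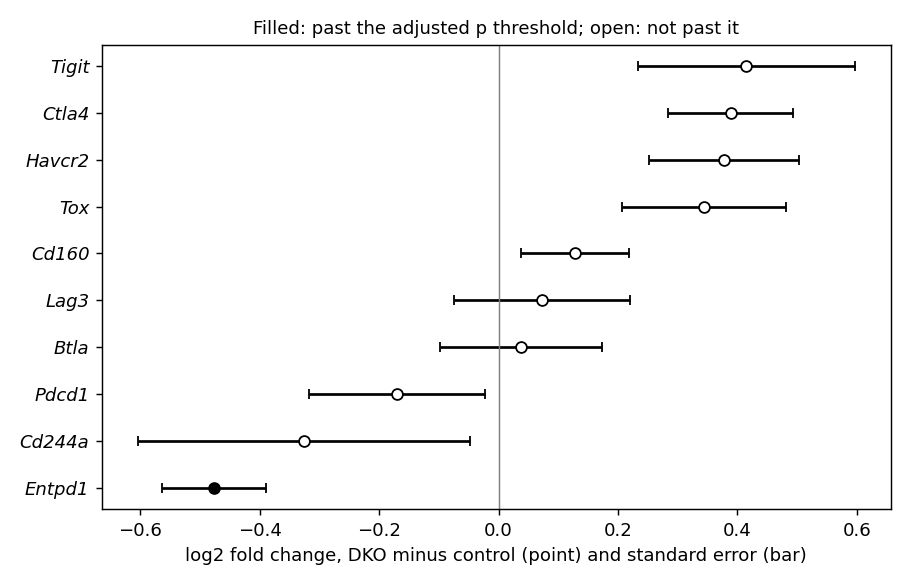
Log2 fold change of DKO minus control from edgeR's quasi-likelihood fit for each of the 10 genes (horizontal axis, point) with its standard error (bar), ordered by size. Entpd1, the filled point at -0.48, passed the adjusted p threshold of 0.05, and the 9 open points did not, with Tigit highest at 0.42.

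Of 20 genes of the TOX family and of transcription factors linked to exhaustion, 19 were tested and 2 passed the threshold, both lower in DKO, beside 2.83% of all genes tested, and 11 of the 19 had an unadjusted p under 0.05, beside 16.0%. Maf, a factor that promotes several inhibitory receptors and IL-10, fell from 2.58 ± 0.683 to 1.01 ± 0.175 CPM (edgeR adjusted p 0.0117 for a log2 change of -1.34 with SE 0.23), and it kept the threshold without each library. Eomes, a T-box factor of effector and memory cells, fell from 71.9 ± 11.3 to 51.4 ± 5.12 CPM (log2 change -0.48, SE 0.12, adjusted p 0.0497, edgeR), and it kept the threshold without 1 library, control replicate 1, and lost it without any of the other 8 (adjusted p of at most 0.142). Id2, the most abundant of the list, was at 2592 ± 435 and 2028 ± 243 CPM (adjusted p 0.159). The NFAT and NR4A factors, which act upstream of Tox after receptor signalling, did not pass: Nfatc1 and Nfatc2 had log2 fold changes of 0.37 and 0.34 (adjusted p 0.306 and 0.562), and Nr4a1 and Nr4a2 had 0.55 and -0.12 (adjusted p 0.251 and 0.831). Nfatc2 was at 46.3 CPM in control replicate 1 and at 131.3 to 155.8 CPM in the other libraries, and that library is the one with lower values for long genes. The median log2 fold change of the list was 0.24, and 14 of its 19 tested genes had positive values. DESeq2 called 4 of the list (Eomes, Maf, Id3 and Irf4) and limma-voom 5 (those and Ikzf2). This list too was chosen with earlier results of these data known, so its counts are not independent support for a difference.

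The 4 other lists of these pathways are read beside 2.83% of all genes past the threshold and 16.0% at an unadjusted p under 0.05. They were likewise chosen with earlier results of these data known. Of the 13 ligand genes, 10 were tested and 0 passed in edgeR, with 2 at an unadjusted p under 0.05, while DESeq2 called 0 and limma-voom 1 (Cd80). Of 14 mediators of the receptors' signals, led by the kinase gene Lck, 0 passed in edgeR, DESeq2 or limma-voom, with 2 at an unadjusted p under 0.05 in edgeR (Ptpn6, the gene of the phosphatase SHP-1, at 0.18, and Grb2, at 0.19 on the log2 scale). Of 11 receptors that share ligands or families with the members, led by Slamf7, 1 passed, which was Slamf1, and 3 had an unadjusted p under 0.05. Of 13 other inhibitory receptors, led by Klrc1, 0 passed in edgeR and 6 had an unadjusted p under 0.05, while DESeq2 called 1 (Cd101) and limma-voom 3 (Cd101, Cd6 and Klrg1). Lower among the 6 were Klrg1 (668.0 ± 56.5 and 545.5 ± 56.0 CPM, log2 fold change -0.29, adjusted p 0.125, edgeR), Cd101 (log2 change -0.65, adjusted p 0.121) and Lair1 (-0.24, adjusted p 0.278). Higher were Cd6, Cd5 and Klra9, with log2 changes of 0.36, 0.24 and 0.39 (adjusted p 0.137, 0.270 and 0.279, edgeR).

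Levels between genes were compared as TPM, which divides by the exonic length. In control the order by mean was Pdcd1 (121.0 ± 34.1 TPM), Cd160 (100.7 ± 7.61), Havcr2 (85.7 ± 18.6), Tigit (40.9 ± 9.17), Entpd1 (33.9 ± 4.39), Lag3 (21.3 ± 5.12), Ctla4 (17.4 ± 2.26), Btla (14.4 ± 2.44), Cd244a (7.14 ± 1.98) and Tox (5.77 ± 1.04). The ranges did not overlap between Havcr2 and Tigit, between Entpd1 and Lag3, and between Btla and Cd244a, and they overlapped between the other neighbours. Within single libraries, Cd160 was above Havcr2, Tigit above Entpd1, Ctla4 above Btla and Cd244a above Tox in 4 of 4 control libraries, while Pdcd1 was above Cd160 and Lag3 above Ctla4 in 3 of 4. In DKO the first 3 were Havcr2 (113.5 ± 8.55 TPM), Cd160 (113.5 ± 6.28) and Pdcd1 (110.2 ± 7.82), whose ranges overlapped. Entpd1 held place 5 in both groups, in DKO at 25.0 ± 1.32 TPM, but there its range overlapped with that of Ctla4 (23.3 ± 0.917), where in control the lowest value of Entpd1 (30.1 TPM) was above the highest of Ctla4 (19.7 TPM). The 9 receptor genes summed to 372.5 to 537.9 TPM in control and 465.4 to 544.4 TPM in DKO.

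**Figure D3:**
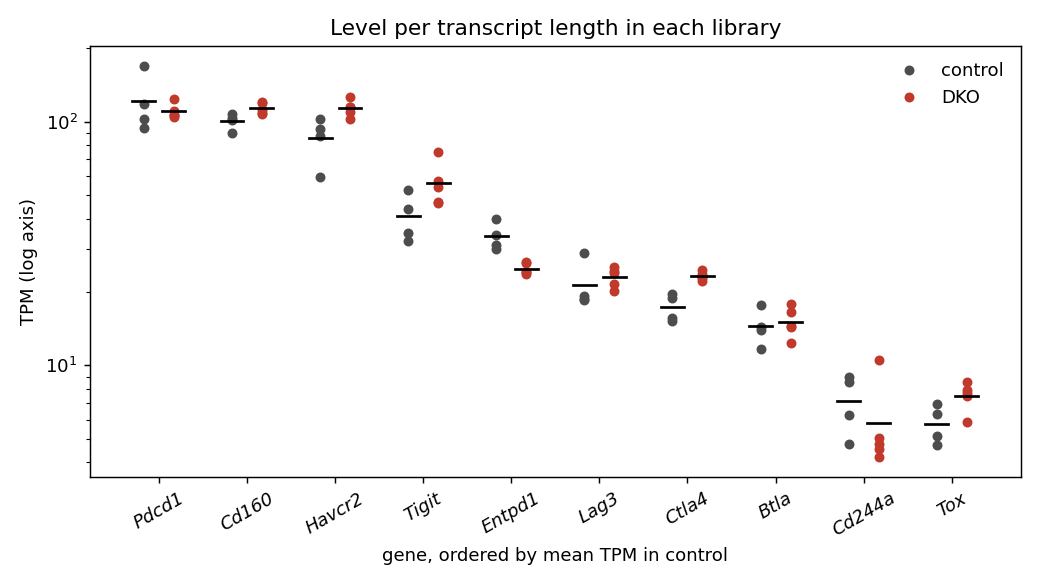
TPM of each gene in each library (vertical axis, log scale), ordered by the control mean, control in grey (n = 4) and DKO in red (n = 5), with the group mean as a black line. The means of the 3 most abundant genes run from 85.7 to 121.0 TPM in control and from 110.2 to 113.5 TPM in DKO. Their single control libraries spread from 59.4 to 169.9 TPM. The means of Entpd1 and Ctla4 lie closer together in DKO (25.0 and 23.3 TPM) than in control (33.9 and 17.4 TPM).

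The replicates of a group did not vary evenly over these genes. Control replicate 4 was the highest control library for 7 of the 10 (Pdcd1, Havcr2, Lag3, Tigit, Ctla4, Cd244a and Tox), and DKO replicate 5 was the highest DKO library for 6 (Pdcd1, Havcr2, Tigit, Cd160, Cd244a and Entpd1) and the lowest for Tox. The coefficient of variation between libraries ranged from 9.34% (Entpd1) to 27.0% (Pdcd1) in control and from 3.83% (Ctla4) to 46.1% (Cd244a) in DKO. DKO replicate 5 also had the highest sum of 20 cell cycle genes, at 1519 CPM, where the other DKO libraries were at 807.6 to 1023 CPM. The control libraries were at 593.8 to 697.7 CPM (exact permutation p 0.0159, two-sided, the smallest that 126 relabellings allow). These 20 genes were chosen with earlier results of these data known, so this p is not independent support for a difference. Of those 20 genes, 13 passed the threshold and rose in edgeR, where 2.83% of all genes tested passed and 1.32% passed and rose. They were Top2a (from 48.9 ± 13.8 to 104.9 ± 31.8 CPM), Mki67, Ccnb2, Ccna2, Cdk1, Plk1, Aurkb, Birc5, Rrm2, Ube2c, Bub1, Cdc20 and Mcm5. Mcm3, the most abundant, was at 85.7 ± 7.53 and 110.4 ± 18.7 CPM (adjusted p 0.154). The count of 13 was 5 when control replicate 3 or DKO replicate 3 was left out. It was 2 without control replicate 4, 6 without DKO replicate 1 or 4, and 3 without control replicates 1 and 3 together. Left-out control replicates 1 or 2 gave 14 or 11, and left-out DKO replicates 2 or 5 gave 12 or 9, in that order. The part of the cell cycle genes in the values of the receptors was not tested.

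**Figure D4:**
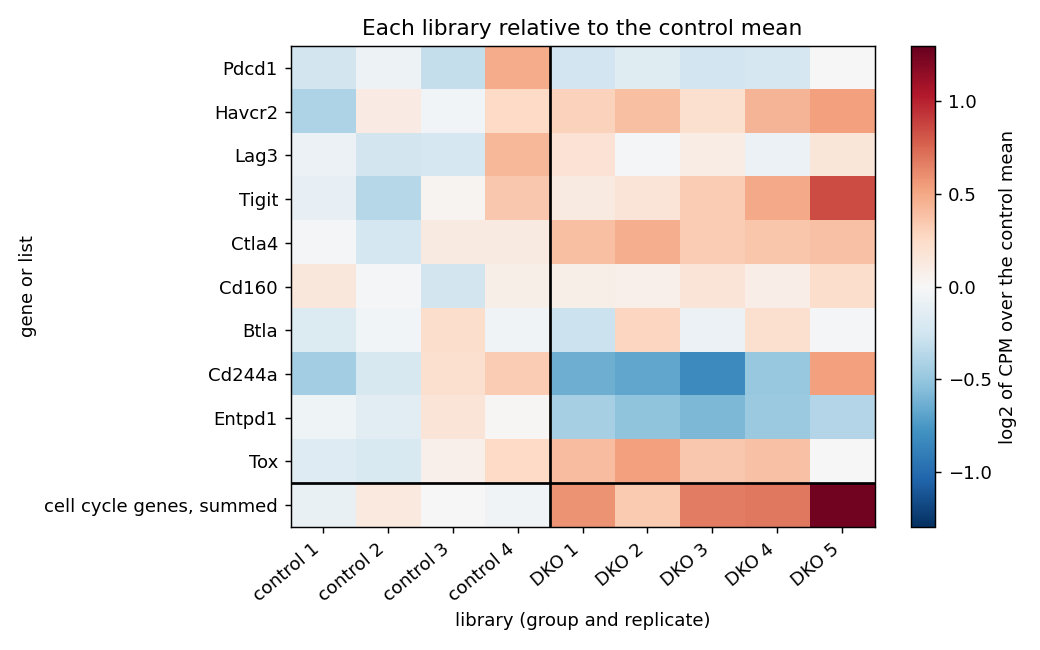
Log2 ratio of each library's CPM to the control mean (colour) for the 10 genes and for the summed CPM of 20 cell cycle genes (rows), in the 4 control and 5 DKO libraries (columns). Entpd1 is below the control mean in all 5 DKO libraries and Ctla4 above it in all 5, while DKO replicate 5 differs from the other DKO libraries at Cd244a, Tox and the cell cycle sum.

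Over the 16 settings tried other than a replicate block, the log2 fold change of Entpd1 ranged from -0.52 to -0.41 and passed the threshold under 14, and that of Ctla4 ranged from 0.32 to 0.46 and passed under 2. Havcr2, Tigit and Tox kept a positive fitted value under all 16 (0.18 to 0.47, 0.28 to 0.55 and 0.28 to 0.44) and passed under none. Cd160 also stayed positive (0.06 to 0.17) and Cd244a negative (-0.66 to -0.20), and neither passed. The settings reuse the same libraries, so a kept sign is not independent support.

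**Figure D5:**
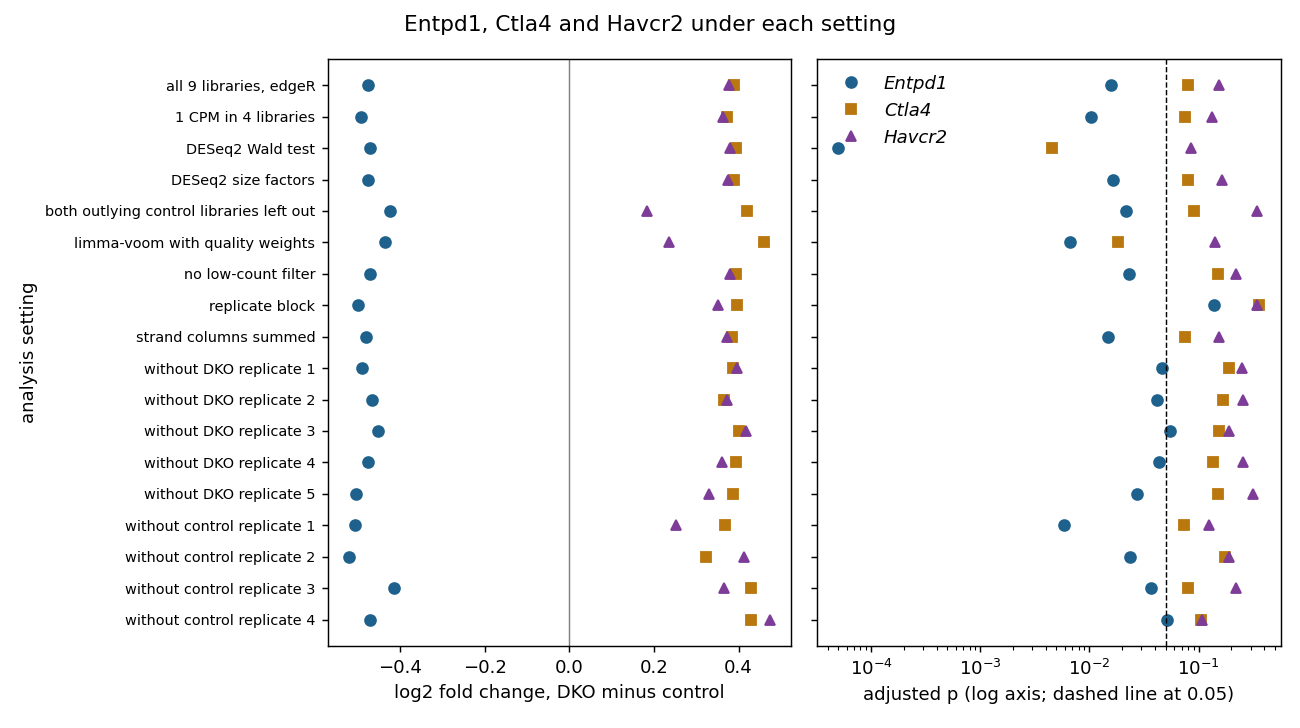
Log2 fold change (left) and adjusted p (right, log axis, dashed line at 0.05) of Entpd1, Ctla4 and Havcr2 with all 9 libraries in edgeR (top row) and under each of 17 other settings. Entpd1 stays negative throughout and passes the threshold under 14 of them, Ctla4 stays positive and passes under DESeq2 and limma-voom, and Havcr2 passes under none.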

How the data were processed

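PolyA RNA of sorted OT-I CD8+ T cells was sequenced in 9 libraries. Per the labels, cDNA came from SMART-Seq v4 (Takara) and libraries from Nextera Flex (Illumina). Read counts per gene were deposited by the authors as whole numbers, 1 file a library, as counts without regard to strand and for each strand. Per the submitters' processing notes, Trim Galore 0.6.0, STAR 2.7.8a and mm10 were used. The annotation release is not given in the sources used here. Of 55471 identifiers, 55230 matched GENCODE M21 (GRCm38) without the version. Lines that name no gene, left out of library sizes and tests, were unmapped (10.3 to 16.7% of reads), multimapping (5.80 to 6.79%), in no feature (4.01 to 5.20%) and ambiguous (4.97 to 5.31%).

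R 4.3.3 with edgeR 4.0.16 gave the main test, on unstranded counts with TMM scaling and the robust quasi-likelihood fit, after filterByExpr (minimum count 10, minimum total 15), with Benjamini-Hochberg adjustment over 14918 genes. CPM, log2 CPM (prior count 2) and TPM (over the union of GENCODE exons) were computed from the counts. Summed markers and targeted genes were tested by exact permutation. The tests were tested on simulated data. No pair of libraries of a group was a duplicate by chi-square (8.96 or more per degree of freedom). Alternatives were DESeq2 size factors, DESeq2 1.42.0, limma-voom (limma 3.58.1) with quality weights, no filter, a filter of 1 CPM in 4 libraries, summed strand columns, a replicate block and leaving out each library. Leaving out control replicates 1 and 3 together was added after seeing the data. Python 3.11.15, pandas 2.3.3, scipy 1.17.1 and matplotlib 3.10.9 were used for the rest.

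Genes named were all members, the targeted genes, list genes past the threshold, the most abundant gene of each list and the 3 genes most like a called member. The ratios, and other list genes given for their role beside a member, were chosen after values were seen. The members and lists were chosen with earlier results of these data known.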

Additional observations from a re-analysis of the deposited data

Results flagged for a closer look

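Of 20 groups of libraries examined (10 genes in control and in DKO), 1 held a library far from the others, and chance alone flags about 1 in 20. It was Cd244a in DKO replicate 5, at 15.8 CPM, where the other DKO libraries were at 6.16 to 7.73 CPM. Its gap to the nearest library was 0.837 of the range of the group, above the limit of 0.71 for 5 samples. The same library had the highest sum of cell cycle genes and the lowest Tox of the DKO group.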

How the results depend on the processing

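The number of genes past the threshold, 422, was 1010 in DESeq2's Wald test, 996 in limma-voom, 67 with the replicate block and 179 to 749 without each library in turn, and it was within 1.5 times under the other settings, from 357 with no low-count filter to 482 when control replicates 1 and 3 were left out. The number of the 10 members past it, 1, was 2 in DESeq2 and 2 in limma-voom (Entpd1 and Ctla4), 0 with the replicate block and 0 to 1 without each library in turn. The labels do not say that the replicate numbers pair the groups, and the deviations of same-numbered libraries correlated at -0.12 to 0.01 over 4 pairs. The deposited file of control replicate 4 carries the number 5, and that library correlated at 0.14 with DKO replicate 5 and at -0.12 with DKO replicate 4. Pairs that share no number in title or file reached like values, with 0.15 for control replicate 1 and DKO replicate 4. The block used the numbers of the titles, so that DKO replicate 5 had no partner and did not enter the contrast. With it the adjusted p of Entpd1 was 0.139, while 1 of the 20 cell cycle genes passed, against 13. Fitted changes that turned were those of Btla (-0.029 in limma-voom), Lag3 (-0.073 when control replicates 1 and 3 were left out) and, with single libraries left out, Btla again (range -0.032 to 0.12, negative for DKO replicates 2 and 4 and control replicate 1) and Pdcd1 (range -0.26 to 0.035, positive for control replicate 4). The cause of these changes was not tested. The effect of depth on the calls was not tested, and the lowest count of a member was 293.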

Other observations

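Ratios of genes within a library do not depend on how libraries are scaled. The TPM of Havcr2 over that of Pdcd1 was 0.632, 0.794, 0.854 and 0.604 in control replicates 1 to 4 and 1.03, 1.03, 0.969, 1.11 and 1.02 in DKO replicates 1 to 5. The highest control value was below the lowest DKO value, although neither Havcr2 nor Pdcd1 passed the threshold alone. This ratio was chosen after its values were seen and was not tested. The TPM of Entpd1 over that of Nt5e, the enzymes of successive steps from ATP to adenosine, was 0.677 to 0.910 in control and 0.516 to 1.03 in DKO, and the groups overlapped, with DKO replicate 5 highest.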
